A study of Mus musculus with 14 samples.

Results

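Fibroblasts made senescent by loss of the telomere protein TRF2 were compared with the same fibroblasts given vehicle, over all genes, from 6 of the 14 RNA-seq samples of the series. The other samples are mouse livers and are not analysed here. The cells are immortalized murine embryonic fibroblasts (iMEFs), made with SV40 large T antigen, with the genotype Trf2F/F;Rosa-CreER. They carry *Trf2* (*Terf2*) alleles flanked by loxP sites and a Cre recombinase, expressed from the Rosa locus, that 4-hydroxytamoxifen (4HT) activates. Senescent iMEFs (n = 3) received 4HT, 1 μM according to the methods, with collection at day 7. Control iMEFs (n = 3) received vehicle in its place. All 6 libraries therefore share the floxed alleles, CreER and large T antigen, and the design holds no 4HT-treated cells that kept *Trf2*. What 4HT or active Cre did by itself and what the loss of TRF2 did cannot be told apart. The methods call the replicates biological, but nothing states whether they were separate cultures or cell lines, and p-values measure only the spread between these libraries. Of 54532 genes in the count table, 24697 had a read in at least 1 of the 6 libraries and 13561 passed the filter on low counts and were tested. The description sets aside lists of 173 matrix genes and 69 p53 targets and follows 5 themes through 38 gene lists with 2635 genes. The themes are transcription factors, surface receptors, ion channels, signalling and RNA processing. The surface receptor lists also hold genes that are not receptors, such as guidance ligands and Notch ligands and modifiers. The lists set aside are not complete, and whether genes outside them respond to p53 was not tested. Of the genes of the themes 1896 were tested, and 739 had too few reads.

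TRF2 is a subunit of shelterin, the complex that shields chromosome ends from the DNA damage response, and cells that lose it stop dividing and become senescent. Senescent fibroblasts are known to stay alive and metabolically active while they change shape, secretion and surface proteins. A fibroblast's type and position in the body are recorded in its transcription factors, and its contact with neighbours, matrix and ions depends on receptors and channels. RNA processing factors splice, modify, export and degrade transcripts and charge the tRNAs that translate them.

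The 6 libraries held 16146579 to 20177401 reads in genes, and 19010 to 20124 genes had a read in a library. Levels are CPM, reads of a gene per 1000000 reads of a library whose size was adjusted by TMM factors, and fold changes are on the log2 scale from edgeR's quasi-likelihood fit at a prior count of 2. Where a gene is said to have risen or fallen by a value, the value is on this scale. Genes are described with their values mainly where they were called and their groups did not overlap, so that the separation of the groups in these values was set by the choice of genes. *Terf2*, the targeted gene, was at 37.7, 39.2 and 38.0 CPM in control iMEFs and 0.215, 0.305 and 0.229 CPM in senescent iMEFs, so each library matched its label. All 10 fibroblast markers reached 1 CPM in at least 1 library and summed to 14856 to 15760.2 CPM in control and 6265 to 7204 CPM in senescent iMEFs. Of these, 6 fell, among them *Col1a1*, *Pdgfrb* and *Thy1*, while *Twist2* rose. Markers of macrophages and leukocytes summed to 4.24 to 4.86 CPM in control and 6.76 to 8.78 CPM in senescent iMEFs, where *Cd68* rose, with the other 7 of 8 under 1 CPM in every library and *Adgre1* and *Tyrobp* at 0 reads. The epithelial markers summed to 11.7 to 14.3 CPM and 25.4 to 27.0 CPM, where *Krt19* rose and *Cdh1* fell, and the endothelial markers to 8.34 to 10.04 CPM and 12.9 to 18.5 CPM, where *Kdr* rose while *Tie1* and *Emcn* were at 0 reads. Smooth muscle markers summed to 773 to 794 CPM and 408 to 513 CPM, with *Acta2* and *Cnn1* lower, while *Myod1*, *Myog* and *Ckm* of skeletal muscle were at 0 reads. Neural markers summed to 45.6 to 48.1 CPM and 29.7 to 36.0 CPM, mostly *Map2*, which fell, and *Tubb3*, with *Sox10* at 0 reads. The part of these markers in the results below was not tested.

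Senescent replicate 3 stood apart from senescent replicates 1 and 2. The chi-square per degree of freedom over genes was 4.67 between replicates 1 and 2, but 24.7 and 29.8 between either of them and replicate 3, against 4.02 to 9.69 among the controls. Transcripts of the mitochondrial genome took 2.32% of its reads, against 0.853% and 0.644% in senescent replicates 1 and 2 and 0.599% to 0.736% in control iMEFs. A further transcript crossed the groups. *Gm18194*, annotated as a transcribed processed pseudogene (chr7:12795723-12799164, GRCm38), was at 0.608, 0.454 and 136 CPM in control replicates 1, 2 and 3 and at 114, 132 and 0.459 CPM in senescent replicates 1, 2 and 3. It was high in control replicate 3 and senescent replicates 1 and 2 and close to 0 in the other 3 libraries. No cause of either pattern was tested. The strand setting of the counting is not stated, so reads of genes whose exons overlap an expressed gene on the opposite strand are uncertain. Among the genes described here, *Igsf10*, *Arhgap6*, *Btg3*, *Prpf39*, *Trmt13*, *Tsen34*, *Fars2*, *P2rx6*, *Tmem63b*, *Ptger1*, *Plppr3*, *Gm26507*, *Gm38037* and *Gm48529* share at least 5% of their exon bases with such a gene at over 1 CPM.

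Nearly as many genes rose as fell when TRF2 was lost, but the themes divided unequally between gains and losses. With Benjamini-Hochberg adjusted p-values from edgeR's quasi-likelihood test under 0.05, 5400 of the 13561 tested genes were called (39.8%), of which 2522 were higher in senescent iMEFs (18.6%) and 2878 were lower (21.2%), and the median log2 fold change over all tested genes was 0.0028. More transcription factors fell than rose, with 128 of 284 tested genes lower and 44 higher. Surface receptors did so as well, with 112 of 287 lower and 58 higher, and signalling genes followed with 136 lower and 96 higher of 501. Ion channels and pores divided evenly, with 39 of 163 higher and 37 lower. RNA processing genes went the other way, with 197 of 662 higher and 75 lower. In bulk libraries fewer cells of a type and less RNA per cell cannot be told apart. Without control replicate 2, the count of genes called higher fell to 1624, the largest shift among the 6 libraries left out in turn.

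**Figure D1:**
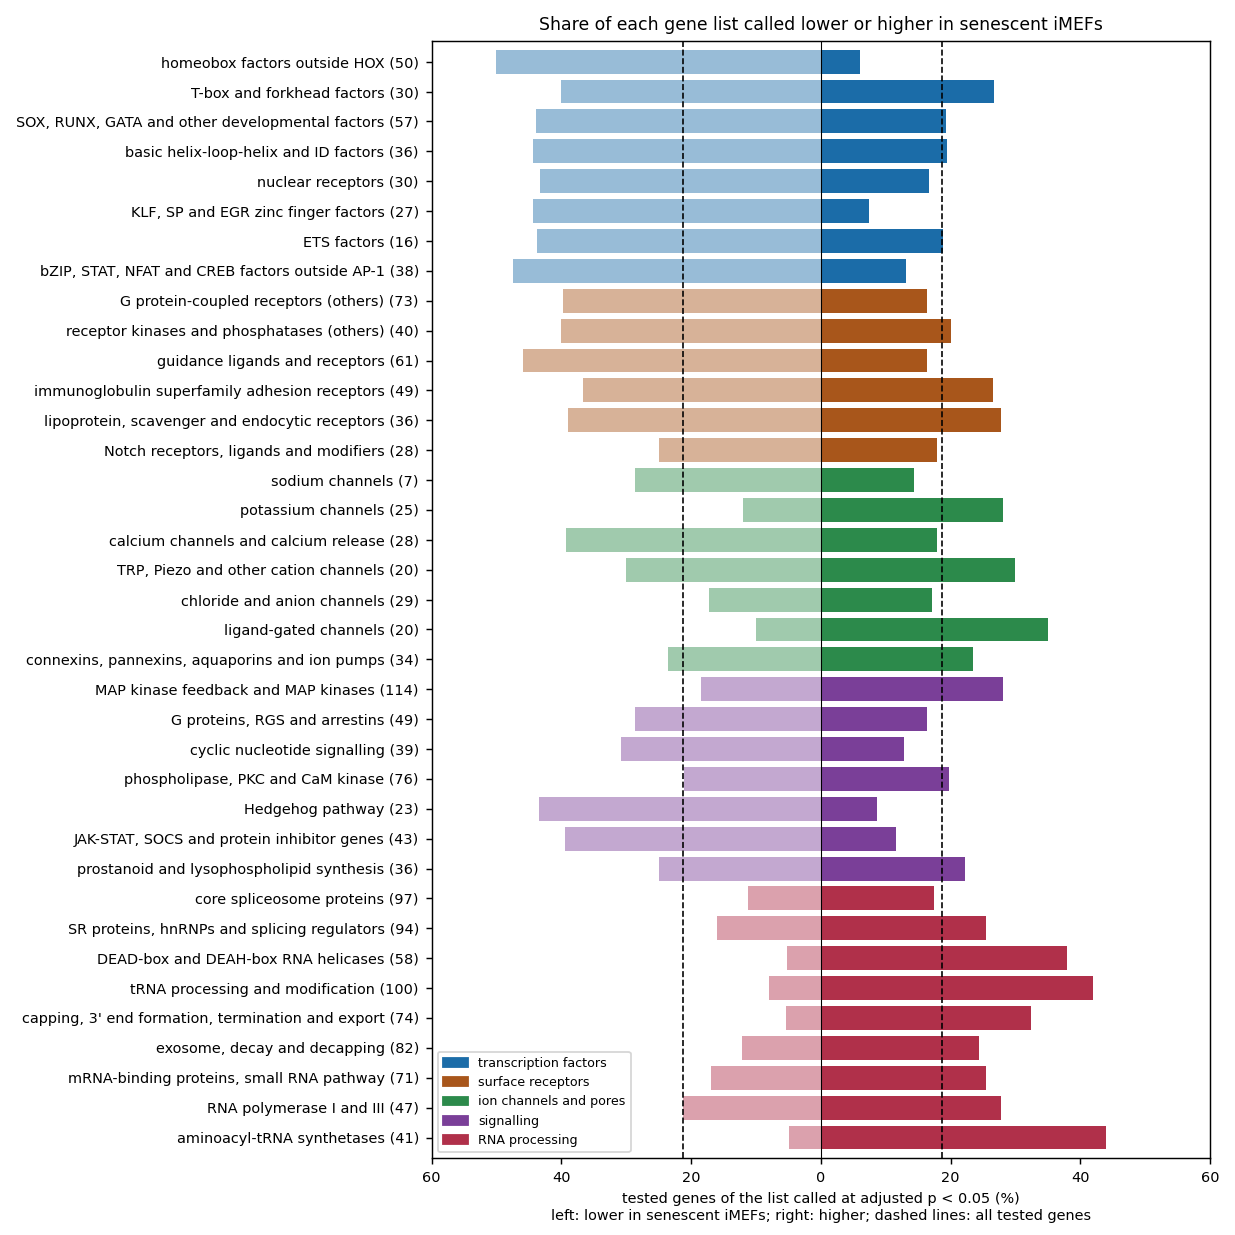
Share of the tested genes of each of 37 of the lists (number tested in brackets) called lower (left, pale) or higher (right, dark) in senescent iMEFs at an adjusted p under 0.05, coloured by theme, with dashed lines at 21.2% lower and 18.6% higher for all tested genes. All 8 transcription factor lists lie beyond the dashed line for lower genes, while tRNA processing and the aminoacyl-tRNA synthetases reach 42.0% and 43.9% higher.

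Transcription factors fell in senescent iMEFs far more often than they rose, led by *Osr2*, *Erg*, *Creb3l1* and *Scx*, while *Id1*, *Id2*, *Bnc1* and *Etv4* were among the gains. Of 284 tested transcription factor genes 45.1% were lower and 15.5% higher, with a median log2 fold change of -0.26, and each of the 8 lists had more genes lower than higher. *Osr2*, a zinc finger factor of palate, limb and joint development (chr15:35296098-35303305, GRCm38), was at 47.1, 44.2 and 42.0 CPM in control and 5.74, 3.59 and 3.15 CPM in senescent iMEFs. The groups lay far apart, and its log2 fold change of -3.37 ± 0.17 (SE, adjusted p = 2.87e-08) was the largest fall of the theme. *Scx*, which encodes the tendon factor scleraxis, was at 85.7, 89.4 and 80.2 CPM in control and 28.7, 25.6 and 20.8 CPM in senescent iMEFs (log2 fold change -1.76 ± 0.11, adjusted p = 2.26e-07). Senescent replicate 3 was the lowest library for *Osr2* and *Scx*.

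The homeobox list outside the HOX genes held the highest share of losses, 25 of 50 tested genes, with 3 higher and a median of -0.35. *Pknox2*, a homeobox factor of the TALE class, was at 53.4, 55.8 and 51.8 CPM in control and 18.9, 19.2 and 15 CPM in senescent iMEFs (log2 fold change -1.6 ± 0.11, adjusted p = 3.06e-07). *Otx1* fell from 3.15, 3.83 and 5.04 CPM to 0.751, 1.58 and 1.66 CPM (log2 fold change -1.52 ± 0.29, adjusted p = 0.00134) at low levels. Among its gains, *Tgif1*, a repressor in TGFβ signalling, rose by 0.60 and *Dlx2*, a factor of forebrain and jaw development, by 0.41 on the log2 scale. Of T-box and forkhead factors 12 of 30 were lower and 8 higher. *Foxc2*, a factor of mesenchyme and lymphatic vessels, was at 26.8, 24.1 and 22.8 CPM in control and 53.4, 47.1 and 51.6 CPM in senescent iMEFs (log2 fold change 1.04 ± 0.10, adjusted p = 4.32e-06), while *Foxd1*, a factor of stromal cells of the kidney, fell by 0.79. At low levels *Foxq1* rose by 0.98 and *Foxd2* fell by 1.21.

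Of basic helix-loop-helix and ID factors 16 of 36 fell and 7 rose. *Id1*, an inhibitor that binds these factors and keeps them from DNA, was at 38.5, 28.2 and 26.2 CPM in control and 76.1, 82.0 and 78.1 CPM in senescent iMEFs (log2 fold change 1.34 ± 0.13, adjusted p = 5.39e-06), and *Id2* was at 20.7, 22.7 and 22.5 and 53.4, 54.0 and 52.7 CPM (log2 fold change 1.28 ± 0.09, adjusted p = 3.24e-07). Senescent replicate 3 lay with the other 2 in both. The falls of this list were led by *Scx* and by *Bhlhe22*, a factor of neurons, which was at 10.8, 8.58 and 6.72 CPM in control and 3.06, 2.62 and 2.70 CPM in senescent iMEFs. Of SOX, RUNX, GATA and other developmental factors 25 of 57 fell and 11 rose. *Bnc1*, a zinc finger factor of keratinocytes and germ cells, rose by 1.44 and *Pax1*, a factor of the vertebral column, by 1.34, while *Tcf7l1*, a WNT pathway repressor, fell by 1.16.

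ETS factors moved in opposite directions. *Erg*, an ETS factor best known from endothelium and cartilage, was at 16.1, 15.8 and 15.8 CPM in control and 2.15, 2.44 and 3.27 CPM in senescent iMEFs (log2 fold change -2.56 ± 0.16, adjusted p = 1.81e-07). *Etv4*, a factor induced by FGF and MAP kinase signalling, was at 29.3, 27.8 and 25.7 CPM in control and 57.1, 51.9 and 58.2 CPM in senescent iMEFs (log2 fold change 1.01 ± 0.09, adjusted p = 3.81e-06). *Etv1*, of the same subfamily, rose by 0.83 and *Ets2* fell by 0.74. In the bZIP, STAT, NFAT and CREB list 18 of 38 genes were lower. *Creb3l1*, an endoplasmic reticulum factor that drives collagen genes, was at 104, 107 and 103 CPM in control and 30.5, 20.3 and 33.4 CPM in senescent iMEFs (log2 fold change -1.89 ± 0.14, adjusted p = 8.62e-07), and *Maf* was at 90.4, 87.7 and 87.0 and 33.1, 30.3 and 31.1 CPM (log2 fold change -1.48 ± 0.08, adjusted p = 7.83e-08). *Creb5* rose by 1.17 and *Maff*, a small MAF protein, by 0.61.

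Nuclear receptors and zinc finger factors of the KLF, SP and EGR families also fell more often than they rose. Of nuclear receptors 13 of 30 fell and 5 rose. *Esrrg*, an orphan receptor of oxidative metabolism, fell by 1.45 and *Vdr*, the vitamin D receptor, by 1.26, while *Nr6a1*, a receptor known from germ cells, rose by 1.08. *Pparg*, the factor of fat cell formation, was at 10.8, 9.13 and 11.1 CPM in control and 18.9, 20.2 and 18.3 CPM in senescent iMEFs (log2 fold change 0.88 ± 0.12, adjusted p = 9.83e-05). Of KLF, SP and EGR factors 12 of 27 fell, among them *Klf13* by 1.02 and *Egr3*, an immediate early gene, by 0.91. Only *Klf5* and *Klf6* of that list were called higher, by 0.64 and 0.52. The calls of *Dlx2* and *Foxq1* were lost without control replicate 2 or 3 or senescent replicate 1, and that of *Foxd2* without control replicate 3. The higher count of the T-box and forkhead list moved from 8 to 4 without control replicate 2 and to 5 without control replicate 3 or senescent replicate 1, and that of the homeobox list from 3 to 1 without control replicate 2.

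**Figure D2:**
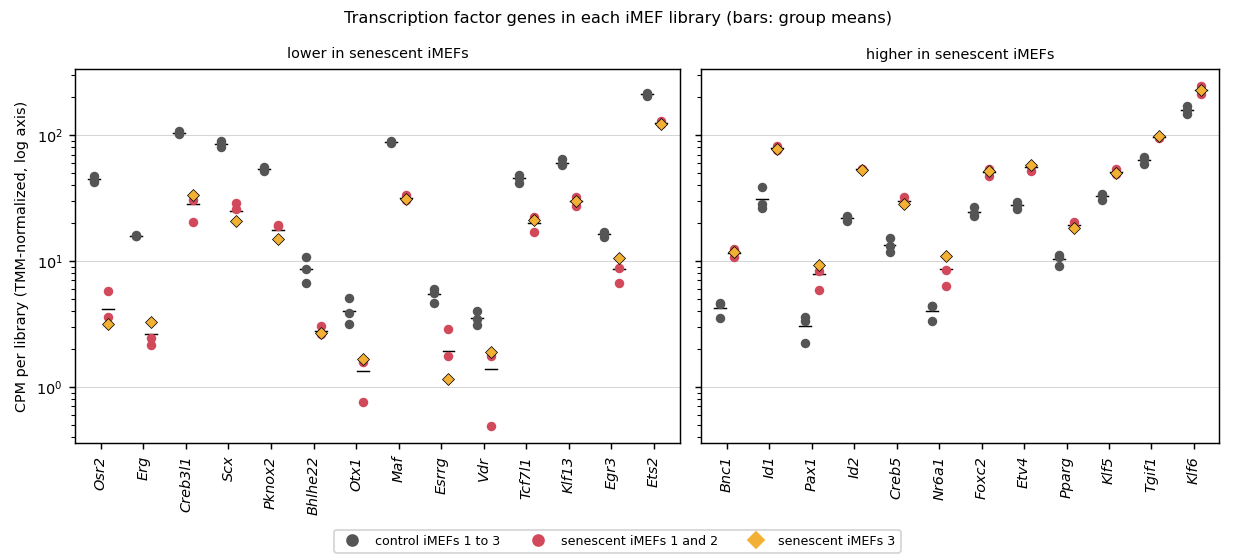
Level of 26 transcription factor genes in each iMEF library (CPM, TMM-normalized, log axis), with control libraries in grey, senescent replicates 1 and 2 in red, senescent replicate 3 as a yellow diamond and short bars at the group means. The genes were chosen as called and without overlap between groups, and senescent replicate 3 lies above both other senescent libraries for *Erg* and below both for *Osr2* and *Scx*.

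Surface receptors fell more often than they rose, with *Scara5*, *Megf6*, *Lgr5* and *Mrgprf* among the steepest falls and *Epha2*, *Thbd*, *Gfra1* and *Jag2* among the gains. Of 287 tested genes 39.0% were lower and 20.2% higher, with a median log2 fold change of -0.19. Among G protein-coupled receptors 29 of 73 fell and 12 rose. *Mrgprf*, an orphan receptor of the MAS-related family, was at 30.0, 35.2 and 34.1 CPM in control and 3.06, 4.20 and 4.59 CPM in senescent iMEFs (log2 fold change -3.04 ± 0.15, adjusted p = 2.14e-08). *Lgr5*, the R-spondin receptor known as a stem cell marker, was at 3.37, 3.08 and 4.56 CPM in control and 0.215, 0.183 and 0.516 CPM in senescent iMEFs (log2 fold change -3.19 ± 0.34, adjusted p = 1.40e-05), with few reads in the senescent libraries. Among the gains *Ramp3*, which escorts adrenomedullin and calcitonin family receptors, was at 4.53, 3.53 and 4.56 CPM in control and 8.86, 11.9 and 14.7 CPM in senescent iMEFs (log2 fold change 1.47 ± 0.19, adjusted p = 8.73e-05), and *Sstr4*, a somatostatin receptor, rose by 1.52 from a low level.

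Receptor kinases and phosphatases divided likewise, with 16 of 40 lower and 8 higher. *Epha2*, an ephrin receptor kinase, was at 58.7, 51.8 and 55.3 CPM in control and 148, 132 and 203 CPM in senescent iMEFs (log2 fold change 1.54 ± 0.13, adjusted p = 2.83e-06), highest in senescent replicate 3. *Gfra1*, the GDNF coreceptor, was at 56.7, 56.1 and 59.2 CPM in control and 129, 141 and 145 CPM in senescent iMEFs (log2 fold change 1.27 ± 0.08, adjusted p = 1.85e-07). The receptor phosphatases *Ptprq* and *Ptprb* fell by 2.62 and 2.08. Guidance molecules had the largest share of losses among receptor lists, 28 of 61, with 10 higher. *Tenm3*, a teneurin that matches cells across synapses, was at 36.9, 29.5 and 35.5 CPM in control and 7.25, 7.37 and 7.57 CPM in senescent iMEFs (log2 fold change -2.18 ± 0.12, adjusted p = 6.79e-08), and *Plxnc1*, a semaphorin receptor, fell by 1.73. The semaphorins *Sema3c* and *Sema6d* rose by 1.46 and 1.37.

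The scavenger list held the steepest fall among the receptors, that of *Scara5*. *Scara5*, a ferritin and scavenger receptor of fibroblasts (chr14:65666403-65764826, GRCm38), was at 8.78, 5.85 and 6.61 CPM in control and 0.215, 0.366 and 0.344 CPM in senescent iMEFs (log2 fold change -4.11 ± 0.28, adjusted p = 3.06e-07). *Megf6*, an EGF-repeat protein of the scavenger list, was at 21.2, 21 and 17.8 CPM in control and 1.5, 0.731 and 1.32 CPM in senescent iMEFs (log2 fold change -3.95 ± 0.19, adjusted p = 2.31e-08). *Igsf10*, a large immunoglobulin-domain protein, was at 115, 103 and 122 CPM in control and 19.1, 18.8 and 24.3 CPM in senescent iMEFs (log2 fold change -2.44 ± 0.12, adjusted p = 1.80e-08). Senescent replicate 3 was the highest senescent library for *Igsf10*, and replicate 2 the lowest for *Megf6*. *Islr*, known as a marker of mesenchymal stromal cells, fell by 1.96.

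Among the gains, *Thbd* encodes thrombomodulin, the thrombin-binding anticoagulant receptor. It was at 20.2, 18.1 and 20.4 CPM in control and 48.1, 48.6 and 72.7 CPM in senescent iMEFs (log2 fold change 1.53 ± 0.15, adjusted p = 7.10e-06). *Icam1*, the ligand of leukocyte integrins, was at 8.23, 6.91 and 7.08 CPM in control and 13, 15.4 and 22.4 CPM in senescent iMEFs (log2 fold change 1.18 ± 0.18, adjusted p = 0.000313), and *L1cam*, a neural adhesion molecule, was at 3.65, 2.88 and 2.41 and 8.0, 5.85 and 10.9 CPM (log2 fold change 1.44 ± 0.23, adjusted p = 0.000416). In each of these senescent replicate 3 was highest. *Cd93*, a C-type lectin receptor of endothelium and phagocytes, rose by 1.47 from a low level. Immunoglobulin superfamily adhesion receptors had 18 of 49 lower and 13 higher, and lipoprotein, scavenger and endocytic receptors 14 of 36 lower and 10 higher.

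Within the Notch list the ligand *Jag2*, which is also listed as a p53 target, was at 0.663, 0.555 and 0.315 CPM in control and 4.40, 3.72 and 7.28 CPM in senescent iMEFs (log2 fold change 3.08 ± 0.33, adjusted p = 1.59e-05). *Rbpj*, the DNA-binding partner of the Notch intracellular domain, was at 142, 135 and 163 CPM in control and 365, 353 and 307 CPM in senescent iMEFs (log2 fold change 1.22 ± 0.10, adjusted p = 1.23e-06). *Lfng*, a glycosyltransferase that tunes Notch to its ligands, fell by 1.35, and *Numbl*, an inhibitor of Notch, by 1.10. The list as a whole, with 5 higher and 7 lower of 28, lay near the shares over all tested genes. Without senescent replicate 3 its count of lower genes was 12, and without control replicate 2 the higher count of the guidance list fell from 10 to 5.

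**Figure D3:**
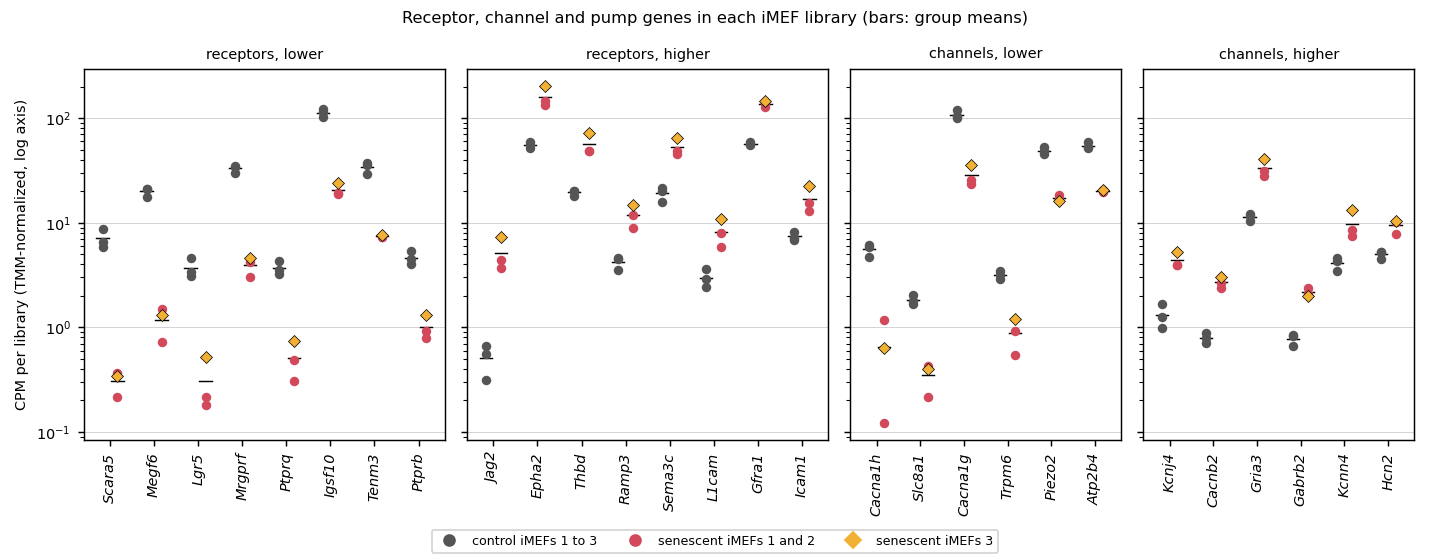
Level of 16 genes of the surface receptor lists, some of them ligands, and 12 channel and pump genes in each iMEF library (CPM, TMM-normalized, log axis). Control libraries are in grey, senescent replicates 1 and 2 in red and senescent replicate 3 as a yellow diamond, with short bars at the group means. The genes were chosen as called and without overlap between groups, and senescent replicate 3 is the highest senescent library for each of the 8 genes of the receptor lists that rose.

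Ion channels changed by kind, with the sodium channel *Scn7a* and the calcium channels *Cacna1g* and *Cacna1h* among the falls and *Kcnn4*, *Kcnj4* and *Gria3* among the rises. The theme as a whole was even, 23.9% higher and 22.7% lower of 163 tested genes, and 238 further genes listed had too few reads to be tested. *Scn7a*, a sodium channel that responds to extracellular sodium (chr2:66673425-66784914, GRCm38), was at 3.53, 3.38 and 5.35 CPM in control iMEFs, 233 reads in all, and at 0 reads in every senescent library. With 3 reads over the group taken as the limit of detection, it was at least 71.5-fold lower in senescent iMEFs (adjusted p = 3.95e-06). *Scn3a*, another sodium channel, fell by 0.71. *Cacna1g*, a low-voltage T-type calcium channel, was at 119.5, 105 and 100.5 CPM in control and 25.9, 23.6 and 36.0 CPM in senescent iMEFs (log2 fold change -1.92 ± 0.14, adjusted p = 6.12e-07). *Cacna1h*, of the same type, was at 5.91, 6.11 and 4.72 CPM in control and 1.18, 0.122 and 0.631 CPM in senescent iMEFs (log2 fold change -2.88 ± 0.37, adjusted p = 6.68e-05). The remaining T-type gene, *Cacna1i*, moved the opposite way, from 0.773, 0.757 and 0.734 CPM to 2.47, 3.23 and 2.01 CPM (log2 fold change 1.63 ± 0.28, adjusted p = 0.000616). Of calcium channels and calcium release genes 11 of 28 fell and 5 rose, and the auxiliary subunit *Cacnb2* rose by 1.64.

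Of potassium channels 7 of 25 rose and 3 fell, and of ligand-gated channels 7 of 20 rose and 2 fell. Without senescent replicate 3 the potassium and the ligand-gated list each had 6 higher and 5 lower, and without control replicate 1 or senescent replicate 1 the potassium list had 1 lower. *Kcnn4*, the intermediate-conductance potassium channel opened by calcium, was at 4.31, 4.59 and 3.46 CPM in control and 8.48, 7.49 and 13.3 CPM in senescent iMEFs (log2 fold change 1.22 ± 0.22, adjusted p = 0.000764). *Kcnj4*, an inward rectifier, was at 0.994, 1.26 and 1.68 CPM in control and 3.97, 3.96 and 5.22 CPM in senescent iMEFs (log2 fold change 1.66 ± 0.24, adjusted p = 0.000199). *Gria3*, an AMPA glutamate receptor subunit, was at 11.7, 10.5 and 12.2 CPM in control and 31.3, 28.0 and 40.6 CPM in senescent iMEFs (log2 fold change 1.53 ± 0.14, adjusted p = 4.35e-06). Senescent replicate 3 was the highest library for these genes. *Gabrb2*, a GABA receptor subunit, rose by 1.36, while the ATP-gated channels *P2rx6* and *P2rx5* fell by 1.57 and 0.97.

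Mechanosensitive and transport genes were mixed. *Piezo2*, a channel opened by touch, was at 48.5, 45.1 and 53.5 CPM in control and 18.4, 16.9 and 16.3 CPM in senescent iMEFs (log2 fold change -1.51 ± 0.10, adjusted p = 3.06e-07), whereas *Tmem63b*, opened by osmotic and mechanical force, was at 74.7, 73.8 and 75.3 and 116, 97.2 and 145 CPM (log2 fold change 0.67 ± 0.12, adjusted p = 0.000792). *Trpm6*, a magnesium channel, fell by 1.72 and *Hcn2*, a pacemaker channel, rose by 0.90. The 2 falls named from the list of connexins and pumps, chosen as its largest, were of calcium export genes. That list had 8 of 34 genes higher and 8 lower. *Atp2b4*, a plasma membrane calcium pump, was at 52.9, 51.9 and 59.4 CPM in control and 20.4, 19.6 and 20.8 CPM in senescent iMEFs (log2 fold change -1.43 ± 0.09, adjusted p = 2.29e-07), and *Slc8a1*, the sodium-calcium exchanger, was at 1.77, 1.67 and 2.05 and 0.215, 0.426 and 0.401 CPM (log2 fold change -2.09 ± 0.32, adjusted p = 0.00029). Among chloride channels *Ttyh3* was at 444, 414 and 383 CPM in control and 184, 159.8 and 194 CPM in senescent iMEFs (log2 fold change -1.21 ± 0.09, adjusted p = 1.19e-06), *Ano5* fell by 1.72, and *Lrrc8d*, a subunit of the volume-regulated anion channel, rose by 0.79. The largest rise of that list was *Ano3*, which is also listed as a p53 target, at 0.884, 0.858 and 0.787 CPM in control and 6.55, 5.85 and 9.81 CPM in senescent iMEFs (log2 fold change 2.98 ± 0.25, adjusted p = 2.07e-06). *Fxyd5*, a regulator of the sodium pump, rose by 1.39.

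The channel counts leaned on single libraries. Without senescent replicate 3 the count of lower genes rose from 37 to 56, which was 33.5% of the channel genes tested in that fit against 22.5% of all genes tested in it. Among lists, the lower count without this library became 14 from 8 for connexins and pumps and 9 from 5 for chloride channels. Without control replicate 2 the calcium channel list had 3 higher and 7 lower, and without control replicate 3 it had 3 higher. The chloride list had 3 lower without any 1 control library and 2 without senescent replicate 1 or 2. The list of connexins and pumps had 5 higher without control replicate 3 and 5 lower without senescent replicate 1. The call of *Scn3a* was lost without any library but senescent replicate 1, that of *Kcnab3* without control replicate 1 or 2 or senescent replicate 1 or 2, that of *Kcnj15* without control replicate 1 or 3 or senescent replicate 1, and that of *Gjb5* without control replicate 2 or 3. *Kcnab3* and *Kcnj15* had fallen by 0.58 and 0.55, and the connexin *Gjb5* had risen by 0.83.

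Among signalling genes the MAP kinase list had more rises than falls, while the Hedgehog and JAK-STAT lists had more falls than rises. Of MAP kinase genes 32 of 114 were higher (28.1%) and 21 lower (18.4%), with a median log2 fold change of 0.073. Over all tested genes 18.6% were higher and 21.2% lower. *Dusp4*, a nuclear phosphatase that inactivates MAP kinases, was at 2.65, 2.17 and 2.41 CPM in control and 12.2, 10.5 and 12.2 CPM in senescent iMEFs (log2 fold change 2.22 ± 0.16, adjusted p = 4.69e-07). *Dusp6*, which acts on ERK in the cytoplasm, was at 15.9, 14.3 and 20.1 CPM in control and 45.4, 50.3 and 47.3 CPM in senescent iMEFs (log2 fold change 1.5 ± 0.12, adjusted p = 1.37e-06). Senescent replicate 3 lay between or beside the other 2 in both. *Rras*, a RAS-related GTPase, fell by 0.89 and *Rasl10a*, another, by 1.04.

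Of Hedgehog genes 10 of 23 fell and 2 rose, with a median of -0.28. The 2 rises became 1 without any 1 control library or senescent replicate 3. *Gas1*, a coreceptor of Hedgehog ligands, was at 571, 581 and 544 CPM in control and 159, 188 and 203 CPM in senescent iMEFs (log2 fold change -1.62 ± 0.10, adjusted p = 1.31e-07). *Hhip*, a surface protein that sequesters Hedgehog ligands, was at 5.74, 4.79 and 5.51 CPM in control and 19.7, 21.3 and 21.3 CPM in senescent iMEFs (log2 fold change 1.94 ± 0.12, adjusted p = 2.21e-07). *Ift88*, a ciliary transport gene and the only other gene called higher in the list, rose by 0.39 and lost its call without any 1 of the control libraries or senescent replicate 3. *Glis1*, a GLI-related zinc finger factor, fell by 1.21. Of JAK-STAT, SOCS and inhibitor genes 17 of 43 fell (11 without control replicate 1). The list also holds other cytokine receptors and inhibitors, and the 2 falls named next were of such genes. *Il1rl2*, the receptor of IL36, was at 19.1, 17.8 and 19.8 CPM in control and 5.15, 5.91 and 7.74 CPM in senescent iMEFs (log2 fold change -1.58 ± 0.15, adjusted p = 5.47e-06), and *Il17rd*, an inhibitor of FGF signalling, fell by 1.05. *Socs5*, a suppressor of cytokine signalling, rose by 0.40, and *Il4ra*, the IL4 receptor, rose by 0.42 but lost its call without control replicate 3.

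Among exchange factors, which load small GTPases with GTP, *Plekhg1* was at 10.1, 8.93 and 9.08 CPM in control and 1.72, 1.34 and 1.20 CPM in senescent iMEFs (log2 fold change -2.62 ± 0.18, adjusted p = 4.52e-07), and *Cdc42ep5*, a CDC42 effector, fell by 2.10. *Dock8*, an exchange factor for CDC42 best known from leukocytes, was at 1.71, 1.06 and 1.36 CPM in control and 4.51, 4.39 and 6.02 CPM in senescent iMEFs (log2 fold change 1.78 ± 0.24, adjusted p = 9.13e-05), and *Arhgap6*, a GTPase-activating protein, rose by 1.72. Among G proteins and their regulators *Rgs17* rose by 2.0 and *Rgs16* by 1.24, while *Rgs3*, of the same family of GTPase activators, fell by 1.78. The higher count of that list moved from 8 to 4 without control replicate 1 or 2 and to 5 without senescent replicate 1. *Gnas*, the stimulatory G protein subunit of an imprinted locus with several transcripts, was at 168, 143 and 97.2 CPM in control and 61.3, 43.2 and 46.5 CPM in senescent iMEFs (log2 fold change -1.43 ± 0.18, adjusted p = 5.14e-05).

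Second messenger enzymes changed by isoform. Of cyclic nucleotide genes 12 of 39 fell (30.8%) and 5 rose (12.8%), against 21.2% and 18.6% of all tested genes. *Pde9a*, a phosphodiesterase specific for cGMP, was at 2.15, 2.42 and 1.78 CPM in control and 0.0537, 0.0609 and 0.287 CPM in senescent iMEFs (log2 fold change -3.20 ± 0.40, adjusted p = 5.44e-05), whereas *Pde5a*, which also cleaves cGMP, rose by 1.06 and *Adcy1*, a calmodulin-activated adenylyl cyclase, by 1.15. *Pkig*, an inhibitor of protein kinase A, fell by 0.91. *Plce1*, a phospholipase C that RAS activates, was at 84.6, 77.2 and 81.4 CPM in control and 15.7, 16.9 and 11.9 CPM in senescent iMEFs (log2 fold change -2.44 ± 0.12, adjusted p = 2.31e-08). *Pik3r5*, a regulatory subunit of PI3 kinase gamma, was at 5.36, 4.69 and 4.98 CPM in control and 17.0, 17.5 and 16.5 CPM in senescent iMEFs (log2 fold change 1.74 ± 0.12, adjusted p = 5.41e-07). The death-associated kinases diverged, *Dapk1* rising by 1.58 and *Dapk2* falling by 2.05. In prostanoid synthesis *Ptgs2*, the inducible cyclooxygenase, was at 96.3, 94.5 and 127 CPM in control and 277, 289.6 and 469 CPM in senescent iMEFs (log2 fold change 1.70 ± 0.18, adjusted p = 1.59e-05), with senescent replicate 3 highest, and *Pla2g7*, which degrades platelet-activating factor, fell by 1.71. *Sphk1*, a sphingosine kinase, fell by 1.14 and *Pla2r1*, a phospholipase A2 receptor tied to senescence in other fibroblasts, rose by 1.6.

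RNA processing genes rose more often than they fell, by small amounts, with the highest shares among genes that modify and charge tRNA. Of 662 tested genes 29.8% were higher and 11.3% lower, with a median log2 fold change of 0.10 and of 0.39 among the genes called higher, smaller than the 0.52 of all genes called higher. Of tRNA processing and modification genes 42 of 100 rose and 8 fell (median 0.21). *Trmt10c*, a subunit of mitochondrial RNase P that methylates tRNA, was at 28.4, 31.6 and 30.4 CPM in control and 51.5, 55.6 and 49.6 CPM in senescent iMEFs (log2 fold change 0.79 ± 0.09, adjusted p = 2.35e-05). *Trmt13*, a tRNA methyltransferase, rose by 0.82. Against this direction *Osgep*, the catalytic subunit for the threonylcarbamoyl modification, was at 36.9, 34.4 and 36.1 CPM in control and 18.2, 20.7 and 20.6 CPM in senescent iMEFs (log2 fold change -0.85 ± 0.10, adjusted p = 2.51e-05), and *Tsen34*, a tRNA splicing endonuclease subunit, fell by 0.71. Aminoacyl-tRNA synthetases and their scaffold had 18 of 41 genes higher and 2 lower (median 0.19). *Mars2*, the mitochondrial methionyl enzyme, rose by 0.61 and *Eef1e1*, a scaffold of the synthetase complex, by 0.58, while the mitochondrial enzymes *Fars2* and *Lars2* fell by 0.47 and 0.26.

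RNA helicases and export factors also rose more often than they fell. Of DEAD-box and DEAH-box helicases 22 of 58 rose and 3 fell (median 0.18), and of capping, 3′ end, termination and export genes 24 of 74 rose and 4 fell (median 0.11). *Eif4a2*, a translation initiation helicase whose introns host small nucleolar RNAs, was at 167, 161 and 168 CPM in control and 299, 283 and 403 CPM in senescent iMEFs (log2 fold change 0.99 ± 0.12, adjusted p = 3.68e-05). *Pabpc1*, the cytoplasmic poly(A)-binding protein, was at 1474, 1475 and 1527 CPM in control and 2371, 2196 and 2031 CPM in senescent iMEFs (log2 fold change 0.56 ± 0.10, adjusted p = 0.0007). *Xpo1*, the nuclear export receptor, was at 312, 327 and 369.9 CPM in control and 459, 483 and 478 CPM in senescent iMEFs (log2 fold change 0.49 ± 0.09, adjusted p = 0.000771). Senescent replicate 3 was the highest senescent library for *Eif4a2* and the lowest for *Pabpc1*. Against this direction *Ddx59* fell by 0.47, *Mov10*, a helicase of retroelement control, by 0.32, and the export factors *Gle1* and *Eny2* by 0.38 and 0.42. The call of *Mov10* was lost without control replicate 1. *Ddx60*, an antiviral helicase, rose by 0.82.

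Splicing factors divided more evenly. Core spliceosome proteins had 17 of 97 higher and 11 lower with a median of 0.0037, a higher share no larger than that over all genes. *Snrnp48*, a protein of the minor spliceosome, was at 18.8, 18.9 and 15.7 CPM in control and 31.6, 27.0 and 51.7 CPM in senescent iMEFs (log2 fold change 1.04 ± 0.20, adjusted p = 0.00122), and its level in senescent replicate 3 exceeded both others. *Prpf39*, a protein of the U1 particle, rose by 0.85, while *Zmat2* and *Sf3b5*, a subunit of SF3B, fell by 0.64 and 0.63. SR proteins, hnRNPs and splicing regulators had 24 of 94 higher and 15 lower. Their largest gains were CELF family members best known from neurons, *Celf5* at 0.939, 1.01 and 1.42 CPM in control and 5.42, 5.42 and 10.4 CPM in senescent iMEFs (log2 fold change 2.54 ± 0.30, adjusted p = 3.10e-05) and *Celf4*, which rose by 1.37. *Hnrnpa0* was at 686, 663 and 566 CPM in control and 431, 396 and 389 CPM in senescent iMEFs (log2 fold change -0.66 ± 0.10, adjusted p = 0.000181), and *Rbm8a*, a subunit of the exon junction complex, fell by 0.55.

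The largest falls of the decay list were of proteins that bind AU-rich messages. *Zfp36*, which encodes tristetraprolin, was at 28.7, 30.4 and 29.2 CPM in control and 16.0, 15 and 18.4 CPM in senescent iMEFs (log2 fold change -0.83 ± 0.11, adjusted p = 6.61e-05), and its relative *Zfp36l1* was at 73.1, 72.1 and 76.2 and 38.6, 38.1 and 40.4 CPM (log2 fold change -0.92 ± 0.08, adjusted p = 3.44e-06). The exosome, decay and decapping list as a whole had 20 of 82 higher and 10 lower, and *Btg3*, a partner of the CCR4-NOT deadenylase, rose by 0.83. Of mRNA-binding proteins and small RNA factors 18 of 71 rose and 12 fell, where *Cpeb1* and *Cpeb2*, regulators of poly(A) tails, rose by 1.06 and 0.75. *Nynrin*, a gene with a retroviral integrase-like part, fell by 1.29 and *Rbms2* by 0.62. Of RNA polymerase I and III genes 13 of 47 were higher (27.7%, against 18.6% of all tested genes) and 10 lower (21.3%, against 21.2%). The lower count fell to 4 without control replicate 1 or 2. *Snapc4*, a factor of small nuclear RNA genes, rose by 0.74. *Taf1d*, a factor of polymerase I transcription whose introns host small nucleolar RNAs, was at 54.0, 52.2 and 50.7 CPM in control and 84.6, 82.5 and 140.1 CPM in senescent iMEFs (log2 fold change 0.97 ± 0.17, adjusted p = 0.000633).

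The counts of RNA processing genes fell without control replicate 1 or 2, as the counts over all genes did. Without either of them 117 genes were higher and 48 or 45 lower, and the higher share of 17.6% stood against 12.7% and 11.7% of all genes tested in those fits. For tRNA processing the higher count became 27 without control replicate 1 and 28 without control replicate 2, for the synthetases 10 and 8, for helicases 16 and 17, for capping and export 13 and 13, for decay 10 and 12, for mRNA-binding proteins 11 and 10, for splicing regulators 12 and 12, and for the core spliceosome 7 and 7. The synthetases also had 11 higher without control replicate 3 or senescent replicate 2, and the core spliceosome 10 without senescent replicate 2. Lower counts moved too. That of the core spliceosome became 7 without control replicate 2 and 19 without control replicate 3, and that of splicing regulators 9 without control replicate 1 or 2. For tRNA processing it became 5 without control replicate 1 or senescent replicate 1 and 4 without control replicate 2, for capping and export 2 without control replicate 2 or senescent replicate 1, and for decay 6 without control replicate 2. Helicases had 1 lower without control replicate 1, and synthetases 1 lower without control replicate 2 or senescent replicate 2. The call of *Lars2* was lost without control replicate 2 or senescent replicate 2.

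**Figure D4:**
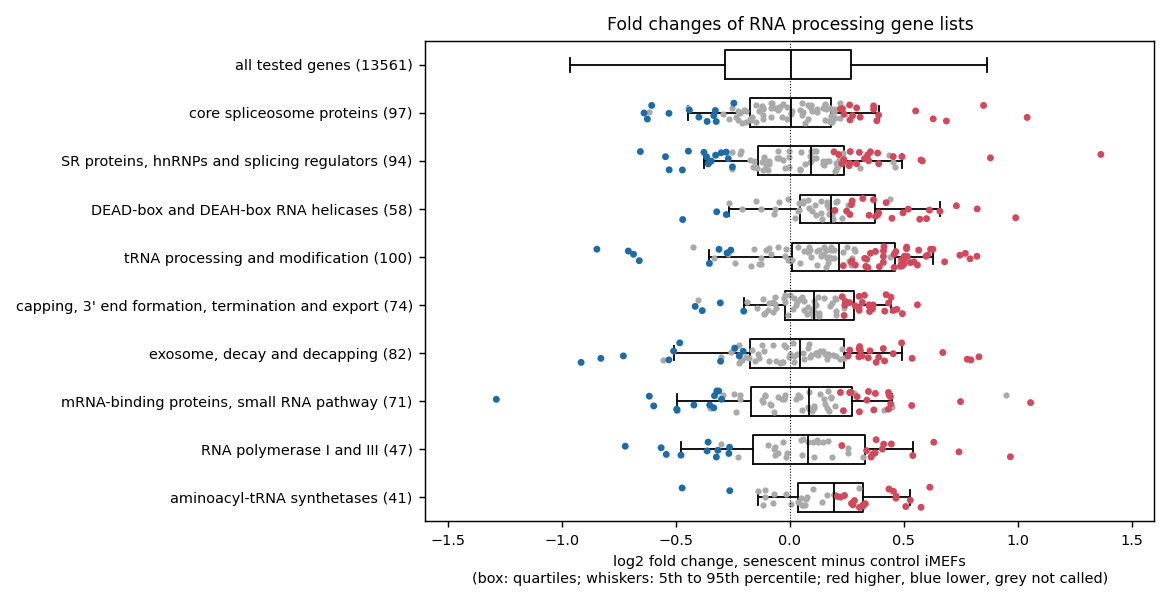
Log2 fold change of each tested gene of the 9 RNA processing lists (points, red called higher, blue called lower, grey not called), with boxes for the quartiles and whiskers from the 5th to the 95th percentile, and the box of all tested genes on top. The medians of tRNA processing (0.21), the synthetases (0.19) and the helicases (0.18) lie above 0, and 1 list gene, *Celf5*, lies outside the axis.

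The largest falls outside the lists included *Serpinb1a*, *Cxcl14* and *Rtl3*, and the largest rises *Atg9b*, *St14* and *Prrg4*. Of the 20 largest rises and 20 largest falls over all genes, 7 and 9 were in the matrix or p53 lists and are set aside, other than *Jag2* and *Ano3*, which are also in the lists above. Of the rest, *Scn7a*, *Scara5*, *Megf6* and *Osr2* are described above. Among the other falls, *Serpinb1a*, an inhibitor of neutrophil proteases, was at 8.67, 9.44 and 7.87 CPM in control and 0.805, 0.609 and 0.574 CPM in senescent iMEFs (log2 fold change -3.50 ± 0.21, adjusted p = 1.22e-07). *Cxcl14*, a chemokine of skin and stroma, was at 14.3, 14.7 and 12.8 CPM in control and 1.34, 1.28 and 1.43 CPM in senescent iMEFs (log2 fold change -3.26 ± 0.16, adjusted p = 2.31e-08). *Rtl3*, a gene derived from a retrotransposon, was at 6.57, 5.65 and 6.87 CPM in control and 0.537, 0.0609 and 0.344 CPM in senescent iMEFs (log2 fold change -3.91 ± 0.32, adjusted p = 1.85e-06). Senescent replicate 3 was the highest senescent library for *Cxcl14* and the lowest for *Serpinb1a*. *Arsi*, a sulfatase, fell by 3.34, *Egfl6*, a secreted EGF-repeat protein, fell by 3.36, and *Gm26507*, a transcript opposite the matrix gene *Fbn2*, fell by 3.76.

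Among the other rises, *Prrg4*, a transmembrane protein with a vitamin K-dependent Gla domain, was at 2.87, 2.78 and 3.41 CPM in control and 23.6, 19.2 and 20.5 CPM in senescent iMEFs (log2 fold change 2.76 ± 0.14, adjusted p = 3.87e-08). *Mcpt8*, a serine protease known from basophils, was at 5.08, 4.24 and 4.14 CPM in control and 27.3, 28.1 and 34.8 CPM in senescent iMEFs (log2 fold change 2.71 ± 0.14, adjusted p = 3.79e-08). *Atg9b*, a lipid scramblase of autophagy, was at 1.10, 2.17 and 0.997 CPM in control and 15.5, 10.8 and 29.7 CPM in senescent iMEFs (log2 fold change 3.6 ± 0.37, adjusted p = 1.21e-05). Senescent replicate 3 had the highest level of *Atg9b* and *Mcpt8* but not of *Prrg4*. *St14*, the membrane protease matriptase, rose by 3.49, *Pm20d1*, an enzyme that makes N-acyl amino acids, by 2.98, *S100a7a*, an S100 calcium-binding protein, by 2.77, and *Cyfip2*, a subunit of the WAVE actin regulator, by 2.68. *Wnt7a*, a WNT ligand, was at 0.166, 0.0505 and 0 CPM in control and 2.52, 2.38 and 3.90 CPM in senescent iMEFs, with 4 reads over the control group. *Sec14l5* and *Ces2g* had 7 and 10 reads over the control group and are as imprecise. Of genes with no known role, *U90926* and *1700007K13Rik* rose by 3.56 and 2.88. *Gm37795*, whose exons overlap the microRNA gene *Mir34a* on the same strand, rose by 2.76 and is in neither list set aside.

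Promoters of the genes were searched for the E-box CACGTG and for the AP-1 site TGANTCA, each of which reads the same on both strands, so that a match counts for both. Promoters came from RefSeq (GRCm38.p6), 250 bases before to 50 bases after a gene's start, and were used for the 7978 tested genes with a single promoter there. The E-box was present in 7.12% of all 22862 single promoters of the table, 10.3% of the promoters of all these tested genes, 12.7% of those of genes called higher and 8.14% of those of genes called lower. Among RNA processing genes called higher it was in 14 of 144 promoters (9.72%), close to the share over all. Among transcription factors it was in 6 of 20 promoters of genes called higher and 3 of 62 of genes called lower, and among signalling genes in 8 of 60 and 0 of 73. Among surface receptors it was in 3 of 35 and 3 of 69, and among ion channels and pores in 4 of 20 and 1 of 21. Of genes not called, 6 of 63 transcription factors, 10 of 157 signalling genes, 7 of 71 receptors and 8 of 50 channels had it. The AP-1 letters were in 7.98% of all promoters of the table, 4.36% of those of tested genes, 5.18% of higher and 4.53% of lower genes. None of these shares was tested. To show where the E-box lies, 4 genes of the themes that rose and had this motif before the start are printed. Up to 40 bases on each side are shown, 5′ to 3′ on the strand of the gene, with the motif in capitals. The 4 genes were chosen after their values were seen. Not every rise of the themes was considered for this choice, so larger rises with the motif may exist.
Kcnn4 (GRCm38.p6 chr7:24370090-24370175, plus strand): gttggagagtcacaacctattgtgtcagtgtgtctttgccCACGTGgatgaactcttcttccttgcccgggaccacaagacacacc
Adcy1 (GRCm38.p6 chr11:7063224-7063309, plus strand): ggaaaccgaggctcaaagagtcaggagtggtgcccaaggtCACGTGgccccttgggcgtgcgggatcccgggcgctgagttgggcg
Amigo1 (GRCm38.p6 chr3:108186229-108186288, plus strand): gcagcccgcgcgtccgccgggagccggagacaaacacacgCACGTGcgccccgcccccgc
Dusp1 (GRCm38.p6 chr17:26508553-26508638, minus strand): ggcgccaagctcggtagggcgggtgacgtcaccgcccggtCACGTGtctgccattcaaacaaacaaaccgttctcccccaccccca
*Kcnn4* and *Adcy1* are described above, *Amigo1*, a neuronal adhesion molecule, rose by 1.12 on the log2 scale and *Dusp1*, an immediate early MAP kinase phosphatase, by 0.96 on the log2 scale. The motif began 133, 169, 20 and 126 bases before the start of *Kcnn4*, *Adcy1*, *Amigo1* and *Dusp1*. A match of letters is a description and not evidence that a factor binds there.

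Senescent replicate 3 departed from replicates 1 and 2 in more genes than any other library did from its fellows, mostly upwards. A gene was said to depart in a library when its log2 CPM differed by over 1 from the mean of the 2 other libraries of the group while those differed by under 0.5, over 13353 genes with at least 1 CPM in some library. By this measure, which has no test and chose the genes described next by their values, 186 genes were higher and 46 lower in senescent replicate 3. The other 5 libraries had 18 to 30 genes higher and 35 to 100 lower. With at least 5 CPM required, 50 genes were higher and 2 lower in senescent replicate 3, and 0 to 3 higher and 0 to 6 lower in the others.

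Among the higher genes of replicate 3 mitochondrial and noncoding transcripts took a large share. Of 21 mitochondrial genome genes compared, 17 departed upwards, and long noncoding or unprocessed transcripts made up 69 of the 186 genes (37.1%) but 5.44% of the genes compared. *mt-Rnr2*, the large mitochondrial ribosomal RNA, was at 178, 224 and 210.2 CPM in control and 291, 249 and 951 CPM in senescent iMEFs. *mt-Nd6*, a complex I subunit and the only protein gene on its strand of the mitochondrial genome, was at 125, 131 and 150.0 CPM in control and 225, 183 and 687 CPM in senescent iMEFs. *mt-Co1*, a cytochrome oxidase subunit, was at 2236, 2553 and 2627 CPM in control and 2916, 2147 and 8179 CPM in senescent iMEFs. Replicate 3 lay far above every other library for these genes. Senescent replicates 1 and 2 lay above every control for *mt-Rnr2* and *mt-Nd6*, while for *mt-Co1* replicate 2 lay below them and replicate 1 above. *Gm28661* and *Gm13340*, annotated as unprocessed pseudogenes, moved with them, at 15.4, 11.2 and 46.5 CPM and 3.06, 3.29 and 10.2 CPM in senescent replicates 1, 2 and 3. Reads of lincRNA, antisense, TEC and processed transcript genes took 0.704% of replicate 3, 0.589% and 0.552% of replicates 1 and 2 and 0.507% to 0.548% of the controls.

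**Figure D5:**
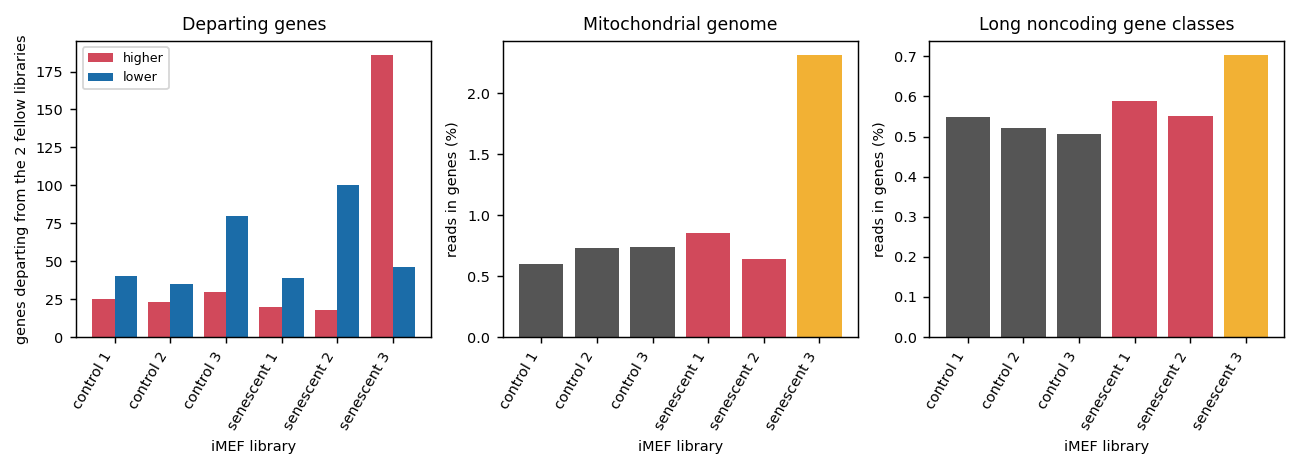
Number of genes that depart from the 2 fellow libraries (left), share of reads from the mitochondrial genome (middle) and share of reads from lincRNA, antisense, TEC and processed transcript genes (right) in each iMEF library. Senescent replicate 3 has 186 genes higher, 2.32% mitochondrial reads and 0.704% long noncoding reads, each the highest of the 6 libraries.

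Of the 1896 tested theme genes 15 departed in this way, against 193 of all 13561 tested genes, and 2 further theme genes had too few reads to be tested. None of the 17 was a transcription factor. *Slc9a5*, a sodium-proton exchanger, was at 21.1, 19.6 and 16.6 CPM in control and 28.2, 20.1 and 51.5 CPM in senescent iMEFs. *Plppr3*, a brain-enriched member of the lipid phosphatase-related family, was at 22.2, 23.3 and 16.1 CPM in control and 11.1, 8.10 and 20.6 CPM in senescent iMEFs. *Amigo3*, an adhesion molecule of neurons, was at 6.02, 6.31 and 4.04 CPM in control and 3.17, 2.62 and 6.94 CPM in senescent iMEFs. For *Plppr3* and *Amigo3* senescent replicates 1 and 2 lay below every control while replicate 3 lay within or above the control range. *Atp1b2*, a sodium pump subunit, showed an intermediate level in replicate 3, at 0.59, 0.67 and 1.49 CPM in the senescent libraries against 2.49, 2.12 and 1.99 CPM in control. *Lrrtm2*, a synaptic adhesion protein, was at 0.483, 0.609 and 2.18 CPM in senescent and 0.939, 1.01 and 1.42 CPM in control iMEFs, and *Ptger1*, a prostaglandin receptor, was at 0.376, 0.487 and 2.01 CPM and 1.49, 0.555 and 0.892 CPM. The lower genes of replicate 3 were led by *Gm18194*, followed by *Tgtp1*, an interferon-induced GTPase, at 1.71, 2.02 and 1.42 CPM in control and 1.07, 0.853 and 0.287 CPM in senescent iMEFs. *Aldh1a3*, an enzyme of retinoic acid synthesis, was at 0.994, 0.959 and 0.997 CPM in control and 3.06, 3.35 and 1.26 CPM in senescent iMEFs, so that the higher level of replicates 1 and 2 was nearly absent in replicate 3.

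Over the genes called in the comparison of both groups, the 3 senescent libraries had similar medians. The calls came from a fit that included replicate 3 and favour genes on which the 3 libraries are alike. The similarity was thus partly set by the choice of genes, here and in the medians by theme. The median log2 difference from the control mean over the 2522 genes called higher was 0.49, 0.50 and 0.57 in senescent replicates 1, 2 and 3, and over the 2878 genes called lower it was -0.58, -0.60 and -0.57. Replicate 3 went further than both others by over 0.5 in 194 of the genes called higher and stayed nearer to the controls by over 0.5 in 118 of those called lower. By theme, the medians of the higher receptors were 0.78, 0.77 and 1.11 and those of the higher channels 0.69, 0.63 and 1.02, against 0.78, 0.74 and 0.73 for transcription factors and 0.37, 0.40 and 0.40 for RNA processing. Lower receptors were at -1.01, -1.08 and -0.71. The medians of replicate 3 thus lay further from the controls for receptors and channels that rose and nearer to them for receptors that fell while for transcription factors and RNA processing genes that rose they lay beside those of replicate 2. These differences were not tested. Without replicate 3, 2790 genes were higher and 3117 lower, of which 2307 and 2653 were also called with it.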

How the data were processed

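RNA of immortalized MEFs was sequenced in 3 control and 3 senescent samples. Per the labels and the methods, the authors aligned reads to mm10 with STAR, counted them per gene with featureCounts and tested them with DESeq2, and the deposited tables hold raw counts of reads per gene, not normalized. Tool versions, the annotation release and the strand setting of the counting were not given in the sources used here. Strandless counting would mix reads of overlapping genes, and reads shared by near-identical copies may be lost. The liver table was not used.

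Columns were matched to samples by their titles, and gene IDs to symbols through GENCODE M21, in which 54495 of 54532 were found. Genes were filtered with filterByExpr, libraries were scaled by TMM factors, and control and senescent iMEFs were compared with edgeR's quasi-likelihood test (edgeR 4.0.16, R 4.3.3) with 4 residual degrees of freedom and Benjamini-Hochberg adjustment over the 13561 genes tested, at 0.05. CPM are TMM-scaled, and errors of fold changes are standard errors. A fold against 0 reads was computed against a floor of 3 reads over the group, which covers counting error only. Alternatives were DESeq2 1.42.0, limma-voom (limma 3.58.1), RLE factors, no filter, a threshold of 0.01, each library left out in turn and a block for the replicate number. The fit was tested on simulated data. Figures and tables used Python 3.11.15, pandas 2.3.3 and matplotlib 3.10.9.

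The members and lists were chosen with earlier results of these data known, and lists are described by counts beside those over all genes, without a test. Named genes were the 2 largest rises and 2 largest falls of each list among genes that were called, averaged 1 CPM or more and did not overlap between groups, the 20 largest rises and falls over all genes and the 15 largest departures of senescent replicate 3 in each direction, by the same floor. Of the genes so chosen, those in the matrix and p53 lists are described only where they are also in a theme list (*Jag2*, *Ano3*, *Sphk1*). Some theme genes that departed, and *Amigo1* and *Dusp1*, were named after their values were seen. Results of some listed genes are not reported here.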

Additional observations from a re-analysis of the deposited data

How the results depend on the processing

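Of 171 genes named by rule, none changed direction under any alternative. These genes were chosen as called and without overlap between groups, so that a kept direction was largely set by the choice. The calls of 6 were lost with DESeq2, 1 with limma-voom, 3 with the replicate block, none with RLE factors or without the filter, and 3 to 9 when 1 library was left out. Over all genes, DESeq2 called 2304 higher and 2674 lower, limma-voom 2466 and 2892, RLE factors 2630 and 2769, and the fit without a filter 2556 and 3073. At a threshold of 0.01 the counts became 1445 genes, 29 transcription factors and 115 RNA processing genes higher and 21 channels and 36 RNA processing genes lower, and the count of each of the other themes stayed within 1.5 times. Of the counts by list, 36 shifted by more than that and 40 did not. Among those that shifted, the higher count became 7 for the synthetases and 24 for tRNA processing. The lower count became 5 for T-box and forkhead factors and 2 for RNA polymerase I and III. Leaving out 1 library gave 1624 to 2790 genes higher and 2168 to 3117 lower. For the themes, higher counts ran from 32 to 48 for transcription factors, 49 to 61 for receptors, 31 to 42 for channels, 70 to 110 for signalling and 117 to 227 for RNA processing, and lower counts from 105 to 125, 95 to 141, 25 to 56, 108 to 136 and 45 to 82. Same-numbered control and senescent libraries did not deviate together (correlations -0.00529, -0.0503 and -0.171), so the replicate numbers were taken as names. With the replicate block, which leaves fewer degrees of freedom, 2101 genes were higher and 2595 lower, with 163 and 66 RNA processing genes. Departures of senescent replicate 3 numbered 232 with RLE factors, 250 with a prior count of 0.5, 12 at a difference of 2 and 52 at a floor of 5 CPM. The cause of these shifts was not tested. The stricter threshold and floor let fewer genes pass, and a left-out library leaves fewer samples. Without senescent replicate 3 the counts over all genes rose, to 2790 higher and 3117 lower. Genes at a few reads, such as *Wnt7a* or *Pde9a*, are limited by depth.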

Other observations

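Genes were also grouped by the length of the genome they span. Genes spanning up to 10 kb (3868 tested) were 14.4% higher and 21.9% lower, those of 50 to 100 kb (1860 tested) 24.8% higher and 21.2% lower, and those over 200 kb (633 tested) 16.0% higher and 32.2% lower, with medians of -0.02, 0.042 and -0.12 on the log2 scale. Genes are not independent replicates, and no test was made.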
